A study of Mus musculus with 25 samples.

Results

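The genes described here are 34 components and feedback regulators of the PI3K-AKT-mTOR pathway, followed across 25 Illumina bead arrays of mouse liver and liver tumour. They were chosen by symbol, and their symbols matched 70 of the 45281 probes on the array through the annotation that the authors deposited. Of the 34 genes, 29 had at least 1 probe detected above background (detection p below 0.05) on 4 or more arrays and were tested among 11594 genes. Those 29 held 48 probes that passed, and 15 of them had several. Inpp4b (a phosphatase of the pathway's lipid), Akt1 and Akt2 (the kinases AKT), Rps6kb2 (an S6 kinase) and Gsk3a (a glycogen synthase kinase) did not pass, so nothing is reported on their change.

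The study asked how livers carrying an injected activating mutant of PIK3CA, the gene for the alpha catalytic subunit of PI3K, differ from livers injected with an empty vector. All mice had the mixed background C57BL/6J x 129Sv. The groups were normal liver of empty-vector controls at 3 months (4 arrays) and 6 months (5 arrays), preneoplastic liver of PIK3CA E545K mice at 3 months (5 arrays), liver tumours of PIK3CA E545K mice at 5 months (5 arrays), and preneoplastic liver of PIK3CA H1047R mice at 3 months (4 arrays). Single arrays came from preneoplastic H1047R liver at 6 months and from an H1047R liver tumour at 12 months. E545K lies in the helical domain of the subunit and H1047R in its kinase domain. The labels state what was injected, but not how, under which promoter, or what share of liver cells carried it. The older controls are labelled 6 months, whereas the design text gives the tumours' controls as 5 months old, so whether they match the tumours in age is unsettled, and the tumours are set against both control groups. Whether the arrays of a group came from different mice is not stated, and the p-values cover only the array-to-array spread, which may be technical.

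PI3K is a lipid kinase that insulin and growth factor receptors engage through adaptor proteins such as IRS1 and IRS2. Its product recruits the kinases PDK1 and AKT to the membrane, and AKT restrains the TSC complex, which otherwise keeps the small GTPase RHEB from activating the mTOR kinase complex that drives protein synthesis. Several outputs feed back: active mTOR signalling dampens IRS proteins, GRB10 blocks the insulin receptor, and AKT excludes FoxO transcription factors from the nucleus, which lowers transcription of Irs2 in liver. DDIT4 (also called REDD1), induced by hypoxia, glucocorticoids and other stresses, acts through the TSC complex against mTOR.

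The promoters shown are those of the 2 members called against both control ages on their brightest probes. They are the 250 bases before the annotated start in RefSeq (GRCm38.p6), 5′ to 3′ on the gene's strand. Ddit4 lies at chr10:59951771-59952020 and Irs2 at chr8:11008930-11009179, both on the minus strand. Capitals mark matches, on either strand, to the letters CACGTG (the E-box), ACGTG (a form of the core of the hypoxia response element, which CACGTG also holds), TGTTTAC (a forkhead motif bound by FoxO) or TGTTTTG (the core of an insulin response element). The other form of the hypoxia core, GCGTG, was not searched and is not marked or counted.
Ddit4: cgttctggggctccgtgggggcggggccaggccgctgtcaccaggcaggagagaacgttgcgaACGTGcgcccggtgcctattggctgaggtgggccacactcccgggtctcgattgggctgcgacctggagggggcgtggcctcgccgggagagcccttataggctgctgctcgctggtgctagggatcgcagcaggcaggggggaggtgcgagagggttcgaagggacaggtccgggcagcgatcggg
Irs2: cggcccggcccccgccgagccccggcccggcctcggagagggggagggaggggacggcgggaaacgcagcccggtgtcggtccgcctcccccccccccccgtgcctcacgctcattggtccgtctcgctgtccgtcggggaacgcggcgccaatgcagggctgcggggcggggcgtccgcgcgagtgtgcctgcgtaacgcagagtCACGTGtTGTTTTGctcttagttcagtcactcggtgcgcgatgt

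In the Ddit4 promoter the single match to the letters searched was ACGTG, at bases 187 to 183 before the start. In the Irs2 promoter CACGTG spanned bases 44 to 39 and TGTTTTG bases 37 to 31, with 1 base between them. The promoter table held 30 of the 34 genes, with 48 promoters. CACGTG occurred in 4 of those 48 (8.33%; Irs1, Irs2, Rheb and Sgk1), against 6.02% of 32851 mouse promoters of the same length. ACGTG occurred in 11 (22.9%, against 16.6%), TGTTTTG in 2 (4.17%, against 5.56%; Irs1 and Irs2) and TGTTTAC in 2 (4.17%, against 3.17%; Akt1 and Pik3cg). These are matches of letters, and no binding was measured.

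Signals are log2 values after background correction and quantile normalization, on which the weakest detected signal of an array lay between 4.59 and 4.93, and all differences below are log2 differences with their standard errors from limma. Arrays detected between 14536 and 18391 probes, and arrays of a group correlated at 0.927 to 0.990. The mean of 10 hepatocyte markers lay between 11.26 and 12.60 on all arrays, and 3 of the 10 were higher in the E545K tumours than in the 3-month controls, 0 than in the 6-month controls and 4 than in preneoplastic E545K liver. Markers of other cell types also differed between the groups. The mean of 8 skeletal muscle markers was 4.96, 7.19, 7.17 and 10.82 in the 3-month controls, 10.01 in replicate 2 of the H1047R livers at 3 months and 6.83 in replicate 4 of the 6-month controls, while the tumours read 4.31 to 4.41. In the tumours 7 of the 8 were lower than in the 3-month controls and 0 of 8 than in the 6-month controls or preneoplastic E545K liver (limma adjusted p below 0.05). Leukocyte markers averaged 7.26 to 8.55 in the E545K tumours, against 6.39 to 6.94 and 6.37 to 7.06 in the 3- and 6-month controls, and the macrophage mean reached 9.63 in tumour replicate 1. Of 8 tested leukocyte markers, 6 and 2 were higher against the 3- and 6-month controls, and of 9 macrophage markers 4 and 4. Cholangiocyte markers averaged 8.24 to 9.59 in these tumours and 7.0 to 8.20 over both control groups, with 3 of 4 tested markers higher against either age. Ptprc, Itgb2, Cd5l, Epcam and Krt19 of these lists were not detected on enough arrays to be tested. Of 3 tested neutrophil markers, 2 were higher against the 3-month controls, 0 against the 6-month controls and 2 against preneoplastic E545K liver. Of 8 fibroblast markers, 3 were lower against the 3-month controls and 2 higher against the 6-month controls. Against preneoplastic E545K liver 1 was higher and 1 lower. Of 8 endothelial markers, 1 was lower against the 3-month controls, 0 against the 6-month controls and 2 against preneoplastic E545K liver. Their mean was 6.32 to 7.68 in the tumours, 7.04 to 7.18 in the 3-month controls and 7.08 to 7.44 in the 6-month controls. Of 5 tested lymphocyte markers, 1 was higher against the 3-month controls and 0 were called against the 6-month controls or preneoplastic E545K liver. The H1047R tumour had the highest cholangiocyte (10.10), fibroblast (8.0) and lymphocyte (5.46) marker means of all arrays, and a leukocyte mean of 7.80. The mean of 7 acute-phase genes, among them Saa1, Orm1 and Hp, was 12.15, 11.77, 9.24 and 9.53 in the 3-month controls, 9.74 to 10.82 in the 6-month controls and 10.99 to 11.59 in the E545K tumours. The part of these cells in the results was not tested, and in bulk tissue fewer cells of a type and less RNA per cell cannot be told apart.

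Ddit4 was the member with the largest difference in all 3 comparisons of the E545K tumours. Its signal was 8.26, 9.22, 9.04, 9.86 and 9.51 in the tumours, 6.92, 6.56, 6.88 and 6.81 in the 3-month controls, and 7.29, 7.48, 6.42, 6.48 and 7.04 in the 6-month controls. Preneoplastic E545K liver read 7.30, 6.98, 6.49, 5.93 and 6.23. Every tumour lay above every control and every preneoplastic E545K liver, and tumour replicate 1 was the lowest of the 5. Ddit4 rose by 2.38 ± 0.27 against the 3-month controls (SE, 5.22-fold; limma adjusted p = 0.000106), by 2.24 ± 0.30 against the 6-month controls (adjusted p = 0.000415) and by 2.59 ± 0.32 against preneoplastic E545K liver (adjusted p = 0.000109). The 3 comparisons share the same tumours.

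The H1047R arrays held the same gene at other levels. At 3 months Ddit4 read 7.46, 7.04, 7.34 and 7.09, all above the 3-month controls, a difference of 0.44 ± 0.15 whose unadjusted p was 0.0136 but which did not pass adjustment over all genes. At 6 months it read 7.40, inside the range of the 6-month controls. The H1047R tumour read 10.45, above every other array in the series. It is a single array, so it carries no test.

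Irs2, the main insulin receptor substrate of hepatocytes, was lower in the tumours. Its signal was 8.44, 8.26, 7.23, 7.11 and 7.16 in the tumours, 9.11, 10.11, 8.46 and 9.30 in the 3-month controls, and 9.09, 8.40, 9.39, 9.24 and 8.38 in the 6-month controls. Tumours 1 and 2 stood at the edge of the controls and tumours 3, 4 and 5 about 1 log2 unit further down. Irs2 fell by 1.60 ± 0.37 against the 3-month controls (adjusted p = 0.00582) and by 1.26 ± 0.32 against the 6-month controls (adjusted p = 0.0165). Against preneoplastic E545K liver, which read 8.17, 8.27, 7.94, 8.59 and 9.59, the difference was -0.87 and did not pass (adjusted p = 0.0672). The H1047R tumour had the lowest Irs2 signal of all arrays, 6.42. Without the 3-month controls 1 and 2 the difference from that age was -1.24 (adjusted p = 0.07).

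**Figure D1:**
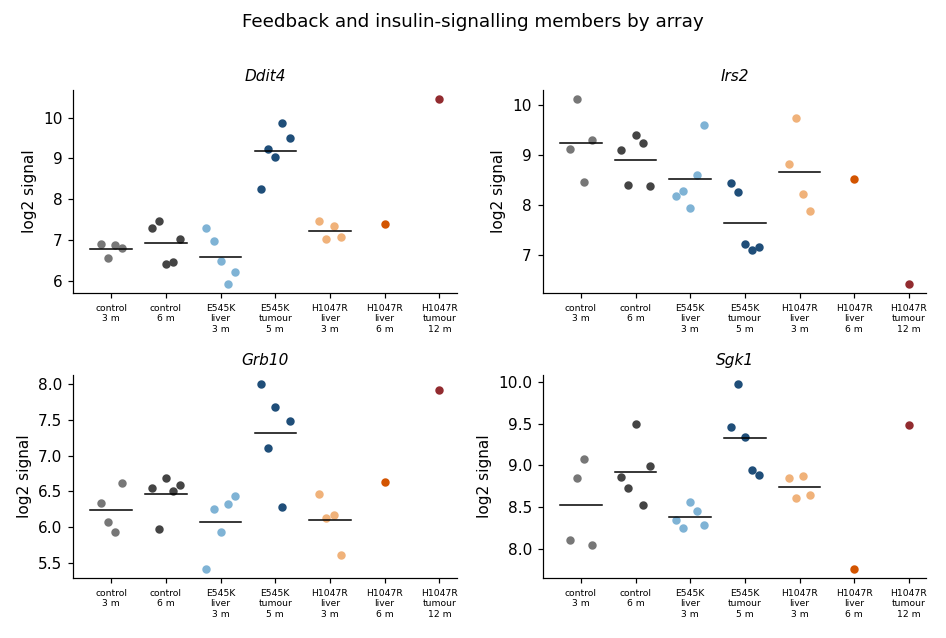
Log2 signal of Ddit4, Irs2, Grb10 and Sgk1 on each of the 25 arrays. Columns are the 7 groups (m, months), filled points are arrays with the probe detected, and horizontal lines are group means. All 5 E545K tumours lie above all controls for Ddit4, and the H1047R tumour holds the highest Ddit4 (10.45) and the lowest Irs2 (6.42).

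Of the 29 tested members, 13 passed an adjusted p of 0.05 between the tumours and the 3-month controls, 5 higher and 8 lower. Over all 11594 genes, 40.4% passed (19.5% higher and 21.0% lower), close to the 44.8% of the members. Against the 6-month controls 2 members passed, Ddit4 and Irs2, where 19.9% of all genes did. Against preneoplastic E545K liver 12 passed, 5 higher and 7 lower, where 40.8% of all genes did (19.9% higher and 20.8% lower). Tumours and the other group did not overlap for 6, 2 and 6 members in these comparisons, against 30.8%, 14.6% and 23.4% of all genes. The median difference of the members was -0.06, -0.05 and 0.04 in these comparisons, and that of all genes -0.03, -0.02 and -0.03. Without the 3-month controls 1 and 2, which had the 2 highest acute-phase means of their group, 2 members passed against that age, Ddit4 and Deptor, and 2810 genes in place of 4689. The other 11 members had differences of the same sign with 2 controls in place of 4, such as 1.11 for Rheb, 1.03 for Grb10, 0.76 for Sgk1, -0.60 for Mlst8 and -0.46 for Pdpk1.

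**Figure D2:**
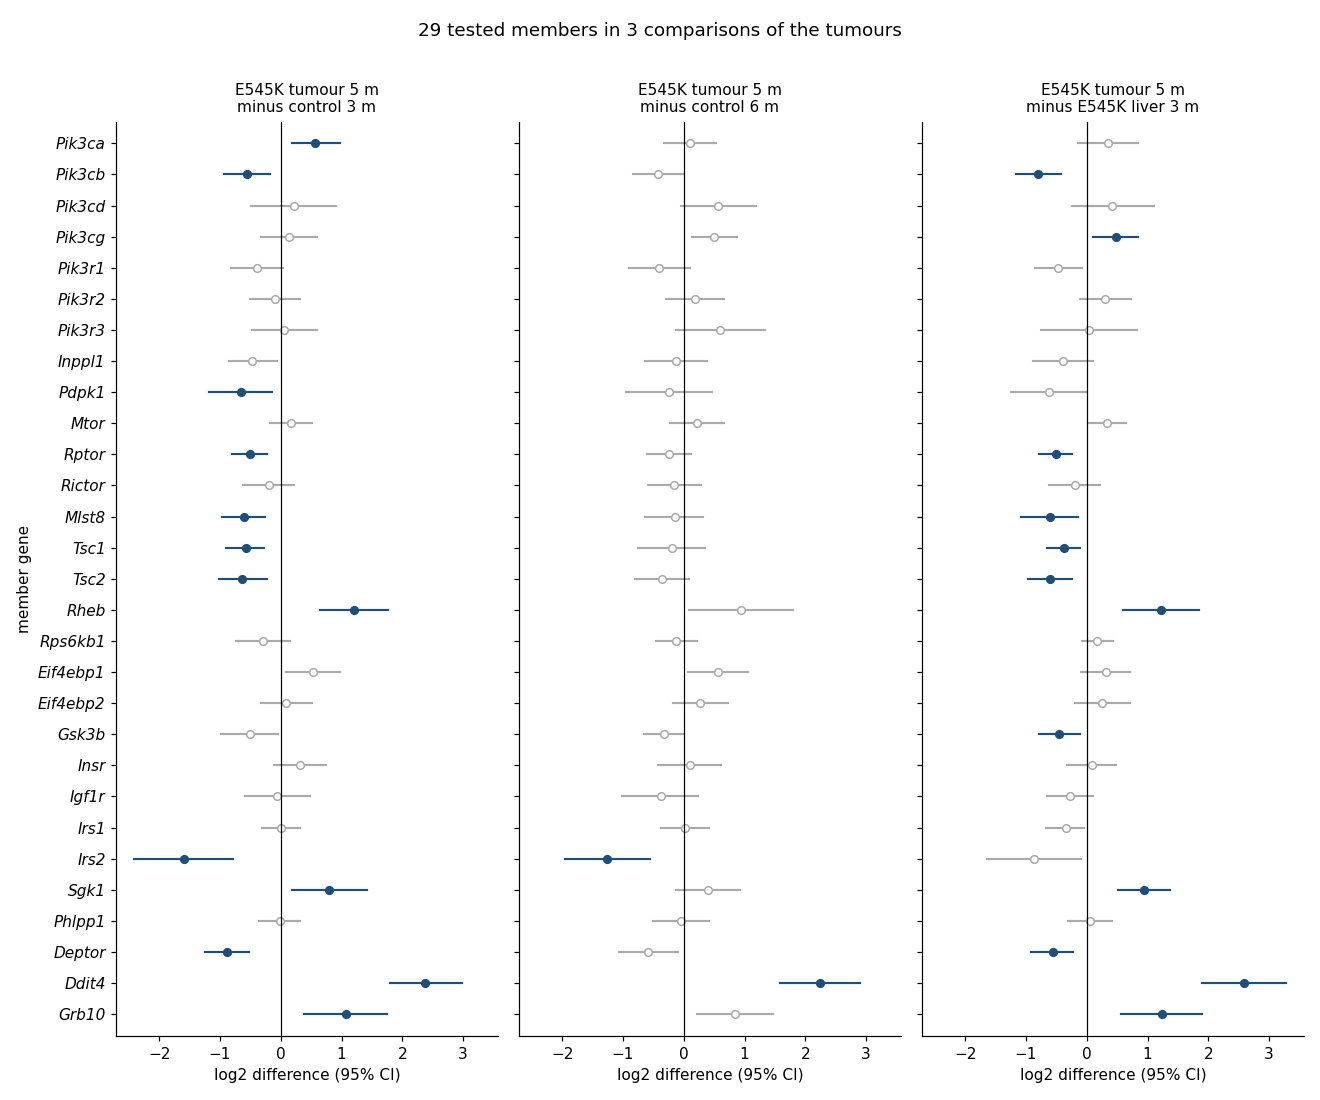
Log2 difference with its 95% confidence interval for the 29 tested members, E545K tumours minus 3-month controls (left), 6-month controls (middle) and preneoplastic E545K liver (right). Filled points passed an adjusted p of 0.05: 13, 2 and 12 members.

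Among the members next to the insulin receptor, Grb10 was higher in the tumours. GRB10 is an adaptor that binds and inhibits the insulin receptor, and its mouse gene is imprinted. Its signal was 8.0, 7.11, 7.68, 6.28 and 7.48 in the tumours, 6.34, 6.07, 5.93 and 6.62 in the 3-month controls and 6.54, 5.98, 6.69, 6.50 and 6.59 in the 6-month controls. Tumour replicate 4 lay within the controls and the other 4 above them. Grb10 rose by 1.07 ± 0.31 against the 3-month controls (adjusted p = 0.0176) and by 1.23 ± 0.30 against preneoplastic E545K liver (adjusted p = 0.00746), which read 5.42, 6.26, 5.93, 6.33 and 6.43. Against the 6-month controls the difference was 0.85 and did not pass (adjusted p = 0.0579). Without background correction the first 2 differences were 0.61 and 0.68, both still called. A second Grb10 probe was near background, detected on 4 of 5 tumours and 1 of 4 3-month controls, and differed by 0.10, 0.06 and, from the 6-month controls, -0.15 (none called). The H1047R tumour, at 7.91, lay within the range of the E545K tumours.

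The receptors and the other receptor substrate did not pass on their brightest probes. Insr, the insulin receptor, read 10.79 to 11.71 in the tumours and 10.84 to 11.00 in the 3-month controls. A second, dimmer Insr probe read 7.63, 7.65, 8.03, 7.71 and 7.36 in the tumours against 6.35, 6.58, 7.14 and 6.58 in the 3-month controls, a difference of 1.02 (adjusted p = 0.00187 in the fit over probes). That probe differed by 0.43 from the 6-month controls (adjusted p = 0.101). Igf1r, the receptor of insulin-like growth factor, lay between 4.59 and 6.31 on all arrays. Irs1 was detected on 1 of 5 tumours and 1 of 4 3-month controls, too close to background to compare.

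Of the class I catalytic subunits, Pik3cb was lower and Pik3ca slightly higher in the tumours than in the 3-month controls. Pik3cb, the beta subunit, read 8.45, 7.93, 7.69, 7.77 and 8.14 in the tumours, 8.58, 8.44, 8.72 and 8.47 in the 3-month controls and 8.99, 8.81, 9.01, 8.61 and 8.54 in preneoplastic E545K liver. The tumours lay below all preneoplastic E545K livers, and 4 of 5 lay below all 3-month controls. Pik3cb fell by 0.56 ± 0.17 against the 3-month controls (adjusted p = 0.0231) and by 0.80 ± 0.17 against preneoplastic E545K liver (adjusted p = 0.00349). Against the 6-month controls, at 8.49, 8.31, 8.04, 8.55 and 8.70, the difference was -0.42 (adjusted p = 0.132). The call against the 3-month controls was lost when any of tumours 3 and 4 or controls 1 and 3 was left out (largest adjusted p = 0.0587).

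The mouse Pik3ca probe was near background and cannot show whether the injected construct was read. It gave 4.68, 5.49, 5.22, 4.91 and 5.21 in the tumours and 4.34, 4.53, 4.77 and 4.46 in the 3-month controls, where it was detected on 1 of 4 arrays. The 6-month controls gave 4.94, 5.35, 5.28, 4.73 and 4.72, close to the range of the tumours, and preneoplastic E545K liver gave 4.87, 4.34, 4.67, 5.47 and 4.44. Pik3ca rose by 0.57 ± 0.18 against the 3-month controls (adjusted p = 0.0243), and the call was lost without any of tumours 2, 3 and 5 or controls 1, 2 and 4 (largest adjusted p = 0.0693). It was also lost without background correction, where the difference was 0.17 (adjusted p = 0.0533). The differences of 0.10 from the 6-month controls (adjusted p = 0.771) and 0.35 from preneoplastic E545K liver (adjusted p = 0.238) did not pass.

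Pik3cg and Pik3cd encode the gamma and delta subunits, which are best known from leukocytes. Pik3cg read 5.54, 4.98, 4.88, 4.74 and 4.70 in the tumours, detected in all 5, and was not well above background in any of the 5 preneoplastic E545K livers or the 5 6-month controls. It was at least 1.14-fold higher in the tumours than in preneoplastic E545K liver. Such a bound compares the tumour mean with the weakest signal detected on the arrays of the other group. The limma difference, which took in the undetected values, was 0.48 ± 0.17 (adjusted p = 0.0429). That call was lost without any of tumours 1, 2 and 3 or preneoplastic livers 2, 3 and 5 (largest adjusted p = 0.101), without background correction (0.15, adjusted p = 0.0711) or without the detection filter (adjusted p = 0.0601). Against the 6-month controls the bound was 1.11-fold and the limma difference 0.50 ± 0.17 (adjusted p = 0.0609). A second Pik3cg probe, detected on 8 arrays, gave 0.33 for that difference in the authors' deposited values (adjusted p = 0.236 there). From the 3-month controls Pik3cg differed by 0.14 ± 0.21 and did not pass (adjusted p = 0.633). Pik3cd read 6.43 in tumour replicate 1 and 4.72 to 5.17 in the other tumours. Replicate 1 also had the highest leukocyte and macrophage markers, whose part here was not tested.

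The regulatory subunits did not pass on their brightest probes. Pik3r1, the main regulatory subunit of liver, read 10.34 to 11.19 in the tumours, 10.98 to 11.53 in the 3-month controls and 10.64 to 11.72 in the 6-month controls, with differences of -0.39 (adjusted p = 0.134) and -0.40 (adjusted p = 0.257). Pik3r2 differed by -0.10 and Pik3r3 by 0.06 from the 3-month controls. A second Pik3r3 probe read 5.59, 5.98, 6.96, 7.02 and 7.29 in the tumours against 5.61, 5.31, 5.98 and 5.67 in the 3-month controls, with tumours 3, 4 and 5 above them (0.93 higher, adjusted p = 0.0447 in the fit over probes). From the 6-month controls that probe differed by 0.84 in the authors' deposited values and did not pass (adjusted p = 0.0951 there).

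Downstream of PI3K, Inppl1 encodes SHIP2, a phosphatase of the lipid that PI3K makes, and Phlpp1 a phosphatase that acts on AKT. Inppl1 read 9.35 to 10.05 in the tumours and 9.82 to 10.25 in the 3-month controls on its brightest probe (-0.47, adjusted p = 0.0594), and a second probe was 0.60 lower (adjusted p = 0.0127 in the fit over probes). Neither probe passed against the 6-month controls (-0.12 and -0.24). Phlpp1 lay between 4.34 and 5.40 on all arrays and differed by -0.02 from the 3-month controls. Pdpk1, which encodes the kinase PDK1 that activates AKT, read 9.08, 8.02, 8.21, 8.29 and 8.45 in the tumours and 9.25, 9.31, 8.50 and 9.22 in the 3-month controls.

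Pdpk1 fell by 0.66 ± 0.24 against the 3-month controls (adjusted p = 0.0437). Leaving out any 1 of tumours 2 to 5 or of controls 1, 2 and 4 ended this call (largest adjusted p = 0.115), as did a single fit over all arrays (adjusted p = 0.121), no detection filter (adjusted p = 0.0855) and no background correction (adjusted p = 0.0524). The 6-month controls spread widely, at 9.55, 8.20, 7.70, 8.84 and 8.97, and enclosed all tumours (-0.24, adjusted p = 0.646). A second Pdpk1 probe did not differ beyond its error (0.02 ± 0.18 against the 3-month controls).

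The gene for the direct activator of mTOR, Rheb, was higher in the tumours than in preneoplastic E545K liver and the 3-month controls. Tsc1 and Tsc2, genes of the TSC complex that inactivates RHEB, were lower on their brightest probes against the same references. Rheb read 8.94, 9.86, 9.97, 9.86 and 9.77 in the tumours, 8.39, 8.38, 9.10 and 8.04 in the 3-month controls and 8.24, 7.86, 8.31, 9.42 and 8.46 in preneoplastic E545K liver. Tumours 2 to 5 lay above all of these arrays and tumour 1 among them. Rheb rose by 1.20 ± 0.26 against the 3-month controls (adjusted p = 0.00374) and by 1.22 ± 0.28 against preneoplastic E545K liver (adjusted p = 0.0055). The 6-month controls ran from 7.20 to 9.74 (7.20, 8.98, 9.74, 8.72 and 9.05), and the difference of 0.94 from them did not pass (adjusted p = 0.116). The H1047R tumour read 9.83 and the 6-month H1047R liver 7.63.

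Tsc1 read 5.10, 5.15, 4.89, 5.03 and 5.02 in the tumours, 5.73, 5.82, 5.67 and 5.26 in the 3-month controls and 5.34, 5.68, 5.27, 5.27 and 5.52 in preneoplastic E545K liver, with no overlap. Tsc1 fell by 0.58 ± 0.14 against the 3-month controls (adjusted p = 0.00828) and by 0.38 ± 0.12 against preneoplastic E545K liver (adjusted p = 0.0288). The second of these calls was lost without any of preneoplastic livers 2 and 5 or tumours 3, 4 and 5 (largest adjusted p = 0.071), and in the single fit over all arrays (adjusted p = 0.135). These values are of the brightest Tsc1 probe, which lay near background. Without background correction both differences were smaller, -0.19 (adjusted p = 0.0225) and -0.11 (adjusted p = 0.0635). The 6-month controls, at 5.39, 5.87, 4.86, 5.67 and 4.40, enclosed the tumours (-0.20, adjusted p = 0.626). A second Tsc1 probe, detected on 22 arrays, gave -0.13 for that difference in the authors' deposited values. Between the control ages it gave -0.32 there (neither called). The comparisons called above are given for the brightest probe only, so those falls rest on that probe.

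Tsc2 had 2 bright probes. The brighter read 10.35, 9.76, 9.65, 9.67 and 9.82 in the tumours, 10.47, 10.73, 10.16 and 10.55 in the 3-month controls, and 10.69, 9.96, 9.77, 10.24 and 10.41 in the 6-month controls. The second probe read 9.20, 8.81, 8.70, 8.75 and 8.70 in the tumours, against 9.61, 9.74, 9.23 and 9.89 and against 9.69, 9.30, 9.03, 9.50 and 9.51. On both, tumour replicate 1 was the highest tumour and lay nearest to the controls.

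By the brighter probe Tsc2 fell by 0.63 ± 0.18 against the 3-month controls (adjusted p = 0.0165; 0.0521 without 3-month control 2) and by 0.61 ± 0.17 against preneoplastic E545K liver (adjusted p = 0.0127). Its difference from the 6-month controls was -0.36 (adjusted p = 0.244). The second probe was lower in all 3 comparisons, by 0.79, 0.72 and, against the 6-month controls, 0.57 (adjusted p = 0.0341 in the fit over probes).

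Rptor, Mlst8 and Deptor, further components of the mTOR complexes, were lower in the tumours on their brightest probes. The references were the 3-month controls and preneoplastic E545K liver. RPTOR is the scaffold of mTOR complex 1, MLST8 a subunit of both complexes and DEPTOR an inhibitor that binds mTOR. Rptor read 8.47, 8.16, 8.12, 8.30 and 8.44 in the tumours, 8.90, 8.78, 8.88 and 8.67 in the 3-month controls and 8.68, 9.05, 8.82, 8.83 and 8.69 in preneoplastic E545K liver, with no overlap. Rptor fell by 0.51 ± 0.13 in both comparisons (adjusted p = 0.0103 and 0.00758). The 6-month controls read 8.23, 8.50, 8.33, 8.76 and 8.91 and overlapped the tumours (-0.25, adjusted p = 0.331).

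Mlst8 read 8.72, 8.27, 7.97, 8.34 and 8.29 in the tumours and 8.88, 9.0, 8.79 and 9.04 in the 3-month controls. No tumour reached the lowest of these controls. The 6-month controls, at 9.0, 8.24, 7.90, 8.74 and 8.50, covered nearly the same range as the tumours (-0.15, adjusted p = 0.669). Other Mlst8 probes, also detected on all 25 arrays, gave -0.06 and -0.08 for that difference in the authors' deposited values. Between the control ages they gave -0.27 and -0.28 there, where the brightest probe gave -0.45 (none called). The comparisons called below are given for the brightest probe only, so those falls rest on that probe. By its brightest probe Mlst8 fell by 0.61 ± 0.16 against the 3-month controls (adjusted p = 0.0108). Its fall against preneoplastic E545K liver was 0.61 ± 0.21 (adjusted p = 0.0384), and those livers read 9.33, 9.35, 8.95, 8.29 and 8.74. The second call was lost in 7 of the 10 fits that each left out 1 array, all but those without tumour 1 and preneoplastic livers 4 and 5 (largest adjusted p = 0.0972), and without the detection filter (adjusted p = 0.0698).

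Deptor read 10.01, 9.89, 9.39, 9.38 and 9.52 in the tumours, 10.48, 10.62, 10.40 and 10.57 in the 3-month controls and 10.09, 10.02, 10.24, 10.25 and 10.41 in preneoplastic E545K liver. All tumours lay below both groups, tumours 1 and 2 closest to them. Deptor fell by 0.88 ± 0.16 against the 3-month controls (adjusted p = 0.00183) and by 0.56 ± 0.16 against preneoplastic E545K liver (adjusted p = 0.0136). The 6-month controls fell into a lower part (9.75, 9.93 and 10.11) and a higher part (10.70 and 10.65), and the difference of -0.59 from them did not pass (adjusted p = 0.0849). A second Deptor probe, near background and detected on 4 of 5 tumours, gave 0.14, 0.12 and, from the 6-month controls, 0.00, with none called. The H1047R tumour was at 9.35.

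**Figure D3:**
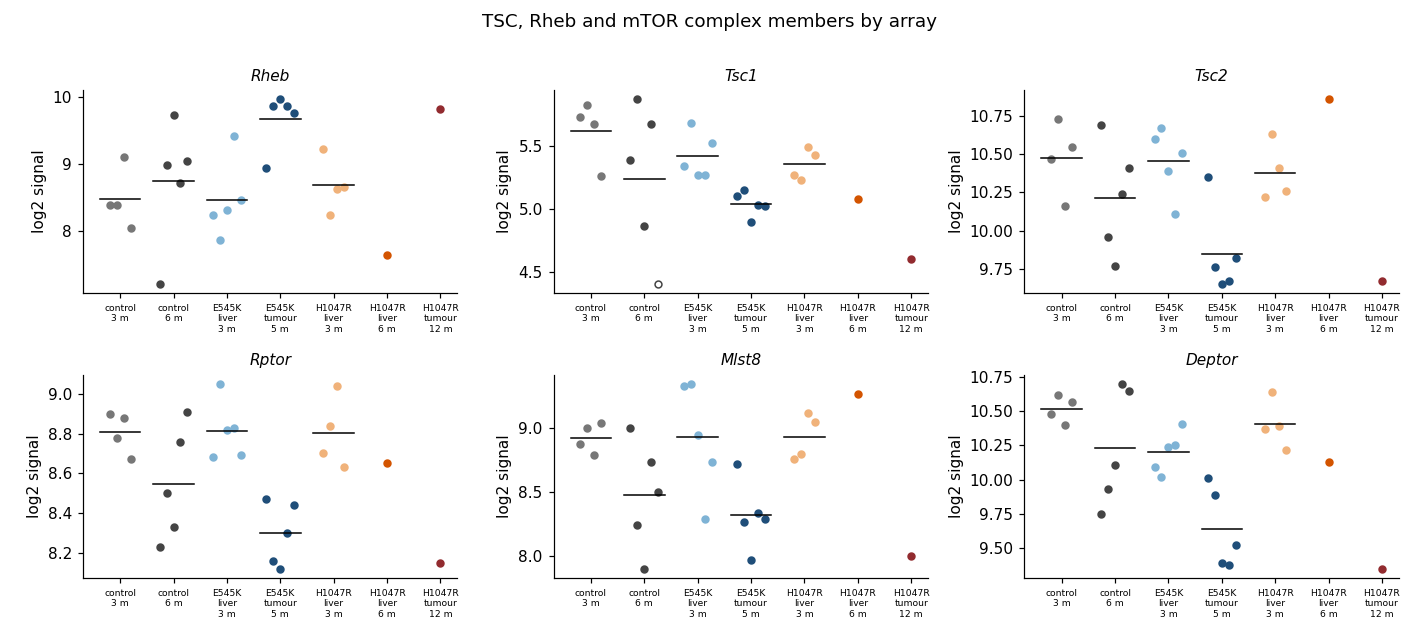
Log2 signal of Rheb, Tsc1, Tsc2, Rptor, Mlst8 and Deptor on each of the 25 arrays (brightest probe of each gene). Columns are the 7 groups (m, months), open points are arrays where the probe was not detected, and lines are group means. The E545K tumours sit at 9.38 to 10.01 for Deptor, below all 3-month controls, while the 6-month controls spread over both ranges.

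Mtor and Rictor, the kinase itself and the scaffold of its second complex, gave smaller differences that did not pass. Mtor read 7.83 to 8.35 in the tumours, 7.72 to 8.19 in the 3-month controls and 7.53 to 8.56 in the 6-month controls (0.17, adjusted p = 0.414, and 0.21, adjusted p = 0.51). Rictor read 8.14 to 8.87 in the tumours and 8.33 to 8.84 in the 3-month controls (-0.20, adjusted p = 0.422). Among the substrates, Eif4ebp1, a repressor of translation that mTOR inactivates, read 11.47, 10.72, 10.89, 10.34 and 10.85 in the tumours and 10.19 to 10.47 in the 3-month controls (0.53, adjusted p = 0.0589). Eif4ebp2 differed by 0.09, and Rps6kb1, an S6 kinase, was detected on 2 of 5 tumours and 2 of 4 3-month controls.

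Sgk1 encodes a kinase related to AKT that the second mTOR complex activates and glucocorticoids induce. Its signal was 9.46, 9.98, 9.34, 8.95 and 8.89 in the tumours, 8.35, 8.25, 8.56, 8.45 and 8.29 in preneoplastic E545K liver, 8.11, 8.85, 9.08 and 8.05 in the 3-month controls and 8.86, 8.73, 9.50, 8.52 and 8.99 in the 6-month controls. The tumours lay above all preneoplastic E545K livers but overlapped both control groups. Sgk1 rose by 0.94 ± 0.20 against preneoplastic E545K liver (adjusted p = 0.00304) and by 0.80 ± 0.28 against the 3-month controls (adjusted p = 0.0383). The latter call was lost without any of tumours 1, 2 and 3 or controls 1 and 4 (largest adjusted p = 0.116), without background correction (adjusted p = 0.0532) or without the detection filter (adjusted p = 0.0848). The difference of 0.40 from the 6-month controls did not pass (adjusted p = 0.271).

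Gsk3b, which encodes a kinase that AKT inactivates, had 2 probes that went opposite ways. The brightest read 7.59, 7.18, 7.27, 7.58 and 7.62 in the tumours and 7.88, 8.25, 7.92, 7.53 and 7.91 in preneoplastic E545K liver, and was 0.45 lower (adjusted p = 0.0373). The second read 7.54, 7.45, 7.80, 7.44 and 7.64 in the tumours and 6.51, 6.16, 6.62, 7.58 and 6.72 in the preneoplastic livers, and was 0.86 higher (adjusted p = 0.0116 in the fit over probes). Against the 3-month controls the second probe was 1.02 higher (adjusted p = 0.00239) and the brightest 0.51 lower (adjusted p = 0.0707). No direction is given for Gsk3b. The files used here do not give the probes' sequences, so which transcripts each reads is not analysed here. The call of the brightest probe was lost in 6 of 10 fits without 1 array, those without preneoplastic livers 1, 2, 3 and 5 or tumours 2 and 3 (largest adjusted p = 0.0884), in the single fit over all arrays (adjusted p = 0.0518) and with trend and robust variance (adjusted p = 0.0537).

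**Figure D4:**
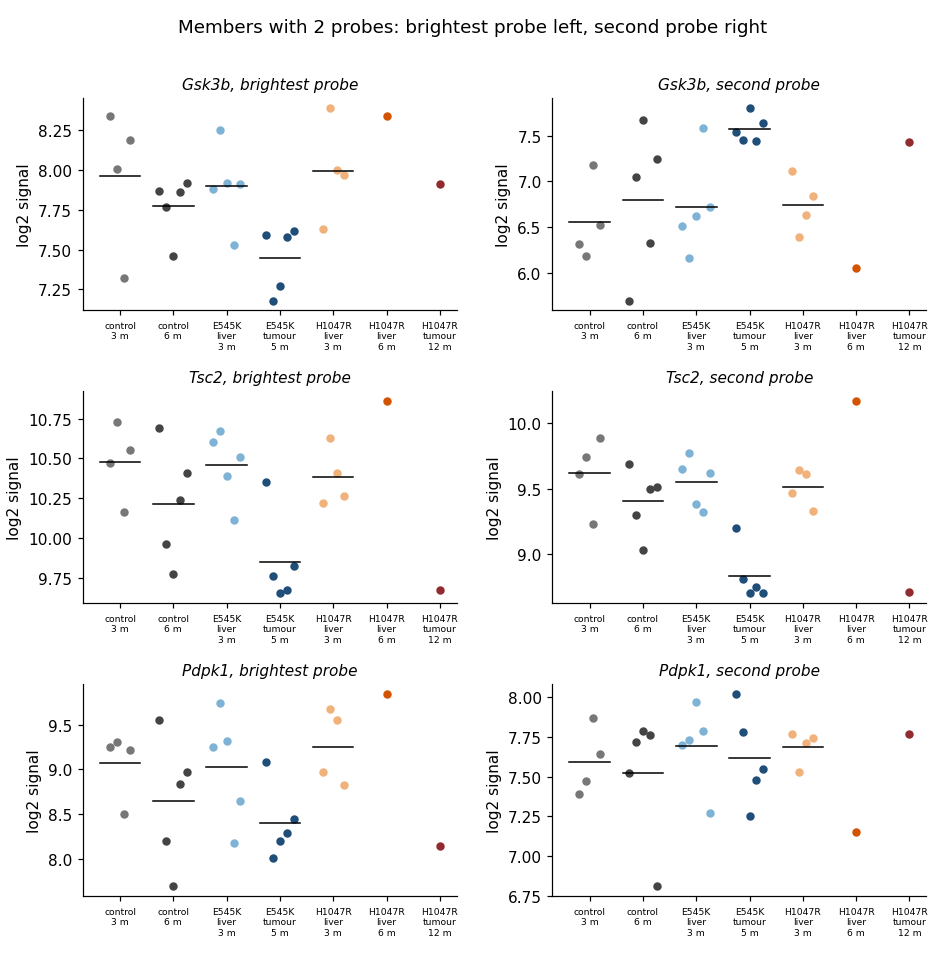
Log2 signal on each array for the brightest (left) and the second (right) probe of Gsk3b, Tsc2 and Pdpk1. Columns are the 7 groups (m, months) and lines are group means. The Gsk3b probes go opposite ways in the E545K tumours (7.18 to 7.62 and 7.44 to 7.80), both Tsc2 probes are lower there, and the second Pdpk1 probe shows no shift.

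Preneoplastic liver showed no member past the threshold. The comparisons with 3-month controls in this paragraph share those 4 arrays. Between E545K liver and controls at 3 months 0 of 29 members passed by limma (0.00863% of all genes, 1 gene), and 3 had an unadjusted p below 0.05 (4.62% of all genes): Pik3r2 (-0.40), Deptor (-0.31) and Rps6kb1 (-0.47). The single member whose groups did not overlap (1.67% of all genes) was Insr, at 11.02 to 11.36 in these livers, a mean difference of 0.23. Between H1047R liver and controls at 3 months 0 members passed (0% of genes). Ddit4 had the single unadjusted p below 0.05 (7.0% of genes) and the single pair of groups without overlap (3.80% of genes). Between the 2 mutations at 3 months 0 members passed (0% of genes), with unadjusted p below 0.05 (6.15% of genes) for Ddit4 (0.65 higher in H1047R), Pik3r2 (0.46 higher) and Sgk1 (0.36 higher). Sgk1 alone did not overlap there (2.27% of genes), at 8.61 to 8.87 against 8.25 to 8.56.

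The control ages differed in no member past the threshold (0.0173% of genes, 2 genes), and Pik3ca was the single member with an unadjusted p below 0.05 (10.7% of genes), 0.47 higher at 6 months. The 6-month controls were less alike than the 3-month ones. Within them, replicate 3 had the lowest signal for 11 of the 29 members, among them Pdpk1, Mlst8, Tsc2, Pik3cb and Pik3r1, and the highest for Rheb, Sgk1, Grb10, Irs2 and Phlpp1. Replicate 1 had the highest Pdpk1, Mlst8, Tsc2 and Pik3r1 and the lowest Rheb. Among the tumours, replicate 1 had the highest signal for 16 of 29 members and the lowest Ddit4 and Rheb.

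Late H1047R tissue was represented by 2 arrays of different age and kind. Fitted together against the 6-month controls they gave 0 members past the threshold (0.0431% of genes, 5 genes), with unadjusted p below 0.05 (8.94% of genes) for Pik3cg (0.84), Pik3cd (0.91), Ddit4 (1.98) and Irs2 (-1.43). The 12-month tumour lay above all 6-month controls for 8 members (24.9% of all genes did), among them Ddit4, Grb10, Rheb, Eif4ebp1 and Pik3cg, and below all of them for 5 (23.4% of all genes): Irs2, Deptor, Pik3cb, Rptor and Tsc2. Of the 29 members, 21 lay within the range of the 5 E545K tumours on this array (60.1% of all genes) and 9 on that of the 6-month preneoplastic liver (32.6% of all genes). The latter lay above all 6-month controls for 8 members (23.3% of genes), Pdpk1, Tsc2 and Mlst8 among them, and below for Sgk1, Rictor and Pik3ca (18.4% of genes).

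A list of 94 other genes of the pathway, of which 68 were tested, went both ways as well. Against the 3-month controls 18 were higher and 15 lower in the tumours (48.5%), against the 6-month controls 14 and 7 (30.9%), and against preneoplastic E545K liver 22 and 14 (52.9%), where 40.4%, 19.9% and 40.8% of all genes were called. Rragd, which encodes a Rag GTPase that brings mTOR to the lysosome, read 8.24 ± 0.51 (SD, n = 5) in the tumours. It was not well above background in any 6-month control, so that it was at least 10.7-fold higher. The limma difference of Rragd, which took in those undetected values, had an adjusted p of 7.24e-07. Elsewhere its probe was detected on 1 array each of the 3-month controls, the H1047R livers at 3 months and the late H1047R tissue. Rragd thus passed the detection filter only through the tumours, which limits what this test shows. Castor1, an arginine sensor that restrains mTOR, rose by 1.89 ± 0.18 and 2.00 ± 0.20 against the 3- and 6-month controls (adjusted p = 4.22e-05 and 4.7e-05). Prkab1, a subunit of the energy sensor AMPK, rose by 1.46 ± 0.11 and 1.36 ± 0.17 (adjusted p = 1.08e-05 and 0.000202), and Ddit4l, the paralog of Ddit4, by 1.32 ± 0.38 and 1.90 ± 0.24 (adjusted p = 0.0174 and 0.00026). Ppp2r1a, a scaffold of the phosphatase PP2A, rose against the 3-month controls (2.15 ± 0.20, adjusted p = 3.76e-05), while its difference of 1.23 from the 6-month controls did not pass (adjusted p = 0.0675).

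A list of 24 genes known as FoxO targets in liver or other tissue, Irs2 and Insr included, had 20 tested. Against the 6-month controls 5 were lower and 0 higher, and against the 3-month controls 6 were lower and 2 higher, as were 5 and 2 against preneoplastic E545K liver. Called in either direction were 25%, 40% and 35% of the list, beside 19.9%, 40.4% and 40.8% of all genes. Over all genes 8.93% were lower and 11.0% higher than in the 6-month controls. G6pc, the final enzyme of glucose production, fell by 3.34 ± 0.32 and 2.94 ± 0.45 against the 3- and 6-month controls (adjusted p = 3.77e-05 and 0.000963), with all tumours below all controls. Pck1, another enzyme of that pathway, fell by 1.19 ± 0.27 and 1.15 ± 0.31 (adjusted p = 0.00553 and 0.0222). The transcription factor gene Bcl6 fell by 1.61 ± 0.54 and 2.18 ± 0.57 (adjusted p = 0.0333 and 0.0188), and Tat, an enzyme of tyrosine breakdown, by 1.25 ± 0.26 and 1.19 ± 0.29 (adjusted p = 0.00339 and 0.0139). For Bcl6 and Tat the tumours overlapped the controls of either age. Tat lay near background in the tumours, with a mean of 4.76 and detection on 3 of 5. Igfbp1 and Gadd45a went the other way against the 3-month controls, by 3.18 ± 0.45 and 2.15 ± 0.25 (adjusted p = 0.000414 and 0.000115), and did not pass against the 6-month controls (2.19 and 0.72).

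The authors' deposited table named for the E545K tumours against 3-month controls gave 7 of 70 member probes past an adjusted p of 0.05, where 9.59% of all probes passed. Its log2 differences were not those of the groups in its name: over 20349 probes they correlated at 0.9998 with tumours minus 6-month controls, with a median absolute gap of 0.0044, and at 0.8921 with tumours minus 3-month controls, with a gap of 0.21. The other 3 tables matched their names, at 0.9997 or above. In the authors' deposited table Ddit4 (2.23), Grb10 (0.85), Eif4ebp1 (0.56) and Pik3cg (0.54) were higher and Irs2 (-1.26), Deptor (-0.58) and the second Tsc2 probe (-0.57) lower.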

How the data were processed

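RNA was extracted with Trizol and hybridised to Illumina bead arrays, per the labels' protocols. The deposited raw table gives each probe's intensity and a detection p-value for every array, per the file headers. The deposited processed table has linear values with a median of 104.8 on every array; their log2 was an alternative here. The authors' deposited comparison tables hold log2 differences, p-values and adjusted p-values. How the authors normalized is not given in the sources.

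The intensities were background-corrected, quantile-normalized and put on the log2 scale with neqc in limma 3.58.1 (R 4.3.3, offset 16), with the background estimated from the detection p-values. Probes detected (p below 0.05) on at least 4 arrays were kept, 20349 of 45281, and the brightest probe stood for each of 11594 genes. Differences of called members with dim probes were larger with background correction than without it. Symbols came from the authors' annotation and were updated through RefSeq for 658 probes; 11503 probes had none. Each comparison was fitted with lmFit and eBayes on its own arrays, with Benjamini-Hochberg adjustment over all genes and a threshold of 0.05. A fit over all kept probes with a symbol, 16981, served members with several probes. Tried as alternatives were the processed table, signals without background correction, no detection filter, every probe on its own, a single fit over all arrays, trend and robust variance, a replicate block, leaving out 3-month controls 1 and 2, and leaving out each array in turn. The procedure was tested on simulated data. Values of every array are given for members called in a tumour comparison or with probes called in opposite directions; the further lists are named by their 4 smallest p-values in each control comparison. The members and lists were chosen with earlier results of these data known. The number of arrays limits the precision. The design text gives 5 controls at 3 months and tumour controls of 5 months; the 3-month group used here has 4 arrays, and the older controls are labelled 6 months. Motifs were searched with Python 3.11.15.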

Additional observations from a re-analysis of the deposited data

Results flagged for a closer look

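Outlying arrays were looked for with Dixon's 95% critical values in 145 sets, each of 1 tested member in 1 group of 4 or 5 arrays. There were 10 outlying values, and chance gives about 1 in 20 sets. In tumour replicate 1, Pik3cd was high at 6.43 (next 5.17), Tsc2 was high at 10.35 (next 9.82) and Rheb was low at 8.94 (next 9.77). This tumour also had the highest leukocyte and macrophage marker means, and their part was not tested. In the E545K livers of 3 months, Pik3cd was high at 5.59 in replicate 2 and Phlpp1 at 5.22 in replicate 4, both on probes not detected on every array of the group. In the 3-month controls, replicate 3 had a high Pik3r3 (6.26, next 6.05) and a low Pdpk1 (8.50, next 9.22). In the 6-month controls, Eif4ebp1 was high in replicate 1 (10.87, next 10.22), Grb10 low in replicate 2 (5.98, next 6.50) and Pik3r3 low in replicate 5 (4.39, next 5.69), where it was not detected.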

How the results depend on the processing

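Directions of called members did not reverse under any alternative computed. Under the alternatives that kept all arrays or left out 3-month controls 1 and 2, 35 of 1711 member values lost and 18 gained a call. Of 2059 values that left out 1 array, 47 lost and 23 gained one. Most of these values could not lose a call. The main fits called 13, 2 and 12 members in the comparisons of the tumours and 0 in the others, so these totals understate how often a call was lost. Ddit4 and Irs2 kept their calls against the 6-month controls under each alternative. Against the 3-month controls Ddit4 and, on its brightest probe, Deptor did. Without 3-month controls 1 and 2 the tumours had 2810 genes and 2 members called against that age. With all 25 arrays in a single fit, 6 members were called against the 6-month controls (4 higher, 2 lower), adding Grb10, Deptor, Pik3cg and Eif4ebp1 to Ddit4 and Irs2, and with a replicate block 5 were, adding Grb10, Rheb and Eif4ebp1. Replicate numbers were not taken as pairs in the main fits. Same-numbered arrays correlated at -0.31 to 0.46 after group means were removed, and 0 to 2 arrays of a comparison correlated best with their own number. For the tumours and 6-month controls, numbers 1 and 3 gave 0.46 and 0.41 and the other numbers -0.26 to 0. With so few arrays these values cannot show whether the arrays were paired. Against the 3-month controls 9 members were called with the block, without Grb10, Pik3ca, Pik3cb and Pdpk1. The block moved no other count of called members by over 1.5 times.

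E545K liver against 3-month controls gave 1 gene, 2 with trend and robust variance, and 0 without the detection filter, in the single fit, with the replicate block or without controls 1 and 2. The control ages gave 2 genes, and 0 without background correction, on the authors' processed values, without the filter, in the single fit, with the block or without controls 1 and 2. Late H1047R tissue gave 5 genes, 2 without background correction and on the authors' values, 10 with trend and robust variance, and 594 in the single fit, where 2 members were called; the spread there comes from all groups. Leaving out 1 array at a time gave 3809 to 5404 genes and 9 to 14 members for the tumours against 3-month controls, 1621 to 2520 and 2 to 4 against 6-month controls, and 3804 to 5367 and 8 to 16 against preneoplastic E545K liver. It gave 0 to 1 gene for E545K liver, 0 to 2 for H1047R liver, 0 to 1 for the control ages, and 2 to 839 genes with 0 to 3 members for late H1047R tissue, where the lone array is assumed to vary like the controls. The block was not run for the late arrays, which share 1 number with the controls. Without background correction or on the authors' values, differences of dim members were smaller, for Tsc1 -0.19 and -0.20 in place of -0.58 and for Grb10 0.61 and 0.64 in place of 1.07 against the 3-month controls. With the block Tsc1 and Gsk3b were not called against preneoplastic E545K liver (adjusted p = 0.0529 and 0.0842). Pik3ca, Tsc1, Irs1, Igf1r, Phlpp1, Rps6kb1, Pik3cd and Pik3cg lie near background, which limits what their probes can show.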
